A study of Homo sapiens with 48 samples.

Results

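Acalabrutinib, an inhibitor of Bruton's tyrosine kinase (BTK), did not act alike on the transcripts of the B cell lymphoma lines TMD8 and HBL1 after 24 h. The comparison set the change against vehicle in TMD8 beside the change against vehicle in HBL1, and subtracted the second from the first. It rested on 8 of the 48 RNA-seq libraries of the study: 2 each of TMD8 with DMSO, TMD8 with 50 nM acalabrutinib, HBL1 with DMSO and HBL1 with 50 nM acalabrutinib, all collected at 24 h. All groups, controls included, were of cells that the labels describe as Cas9 engineered. Of 13881 genes with enough reads to be tested, 590 were called, meaning that the line difference had an adjusted p under 0.05 (edgeR's quasi-likelihood test with Benjamini-Hochberg adjustment over all tested genes). The 8 libraries held 8085282 to 10417212 counted reads.

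TMD8 and HBL1 are established human lines of diffuse large B cell lymphoma, of the activated B cell-like type. Lymphomas of this type often depend on signals from the B cell receptor, which run through BTK and phospholipase C to the transcription factor NF-kB, and through RAS to the kinase ERK. Acalabrutinib binds covalently to BTK and blocks its kinase activity. NF-kB drives cytokines, survival genes and its own inhibitors, while ERK induces immediate early genes and the phosphatases that switch ERK off again. Each line is a single culture model, so a difference between them is a difference between these lines and not between classes of lymphoma.

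Both lines carried the B cell transcripts their labels call for. Over the 8 libraries PAX5, a B cell transcription factor, ran from 282 to 393 CPM (counts per 1000000 counted reads, after scaling). IRF4, a mark of the activated B cell-like type, ran from 429 to 1850 CPM. Of 14 defining markers of other cells, CD3D, CD2 and KRT19 had 0 reads in all 8 libraries, and CD3E, NKG7, CD14 and LYZ at most 3 in a library. Others were present: the cytotoxic gene PRF1 had 201 to 289 reads in HBL1 and at most 1 in TMD8, the epithelial gene EPCAM 94 to 129 in HBL1 and 0 in TMD8, and the collagen gene COL1A2 11 to 59 in every library. CSF1R, ITGAM, COL1A1 and PDGFRB had at most 38. No tested member of the T and NK cell (4), myeloid (4) or stromal and epithelial (9) marker lists was called for the line difference, against 4.25% of all tested genes. The summed myeloid markers, 12 genes, were at 46.9 and 41.7 CPM in TMD8 with DMSO and 66.5 and 57.5 with acalabrutinib, and at 3.61 to 5.35 CPM in HBL1. The summed stromal and epithelial markers, 13 genes, went from 495 and 472 to 451 and 382 CPM in TMD8 and from 25.6 and 26.3 to 41.7 and 39.7 CPM in HBL1. The 13 T and NK markers summed to 2.1 to 5.52 CPM in TMD8 and 27.4 to 35.9 CPM in HBL1, and the part of these sums in the results was not tested. In RNA from whole cultures, fewer cells that express a gene and less RNA per cell cannot be told apart.

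A positive line difference means that the level moved further up, or less far down, in TMD8 than in HBL1, and a negative one the reverse. Values are log2 differences ± standard error, and levels are in CPM. Of the 590 called genes, 4.25% of those tested, 310 were positive (2.23%) and 280 negative (2.02%), and 197 differed by at least 2-fold (79 positive and 118 negative). The balance of the directions moved with the filter on low counts: without a filter 287 were positive and 459 negative, and with a stricter filter 273 and 373. The median line difference was 0.03 over all tested genes. The median size of the difference was 0.70 among the positive calls and 0.88 among the negative calls. Without a correction for the number of tests, 2207 genes (15.9%) had a p under 0.05. Leaving out TMD8 DMSO replicate 2 left 358 calls, the lowest count without any of the 8 libraries.

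The largest class, with 212 genes, rose in TMD8 and was not called in HBL1, with a median change of 0.66 in TMD8 and -0.04 in HBL1. A further 134 genes fell in TMD8 and were not called in HBL1, with medians of -0.93 and 0.06. With no call in TMD8, 59 genes rose in HBL1 and 33 fell there. In 52 genes both lines fell and TMD8 fell further, and in 36 both rose and TMD8 rose further, while 13 rose further in HBL1 and 2 fell further there. The lines went opposite ways, each past its own test, in 42 called genes: 21 fell in TMD8 and rose in HBL1, and 21 did the reverse. The remaining 7 were called in neither line. The called genes were a minority of the response: 4301 genes (31.0%) changed in TMD8, 15.5% of those tested in each direction, and 2643 (19.0%) in HBL1, where 7.62% rose and 11.4% fell, and the line difference was called for 11.4% of the former and 8.97% of the latter. These counts per line share libraries with the line difference and are a description of its calls.

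Rose and fell refer throughout to acalabrutinib against the DMSO libraries of the same time, and the DMSO levels themselves differed between times. Of the 129 called genes that were higher with drug in HBL1, both drug libraries lay above all 4 HBL1 DMSO libraries of 3 h and 6 h for 57 (44.2%, beside 49.2% of all genes higher in HBL1). For 85 of the 129 (65.9%, beside 52.4%) both DMSO libraries of 24 h lay below all 4 earlier ones. Of the 108 that were lower in HBL1, 72 (66.7%, beside 44.5%) had both drug libraries below all 4 earlier DMSO libraries. For 36 of the 108 (33.3%, beside 55.7%) both DMSO libraries of 24 h lay above all 4 earlier ones. In TMD8 the drug libraries lay beyond the earlier DMSO libraries for 222 of 282 higher genes (78.7%, beside 73.9%). The same held for 164 of 209 lower genes (78.5%, beside 69.4%). Both TMD8 DMSO libraries of 24 h lay below all 4 earlier ones for 96 of the higher genes (34.0%, beside 28.2%). They lay above all 4 for 57 of the lower genes (27.3%, beside 34.0%). These counts were added after the values were seen.

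**Figure D1:**
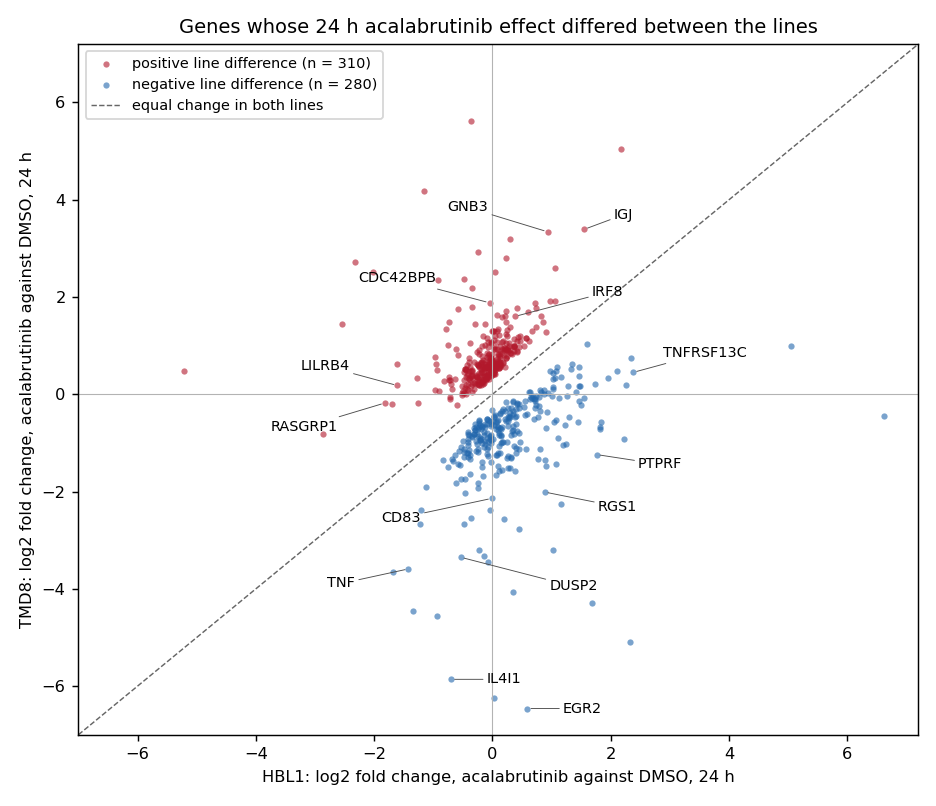
Log2 fold change of acalabrutinib against DMSO at 24 h in HBL1 (horizontal axis) and TMD8 (vertical axis) for the 590 called genes; each point is a gene, red for the 310 positive and blue for the 280 negative line differences, and the dashed line marks an equal change. Most points spread along the vertical axis near 0 in HBL1, with EGR2 and IL4I1 at the bottom and GNB3 and IGJ near the top.

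Among the negative differences with the smallest p were genes induced by B cell receptor signals, which fell in TMD8 and fell less or were not called in HBL1. EGR2, an early growth response transcription factor induced by calcium and ERK signals, stood at 13.6 and 8.01 CPM in TMD8 with DMSO and at 0.213 and 0 CPM with acalabrutinib. In HBL1 it stood at 2.99 and 2.16 CPM with DMSO and at 4.06 and 3.81 CPM with acalabrutinib. The TMD8 groups did not overlap, and neither did those of HBL1, which lay the other way round. The TMD8 levels rested on 210 reads with DMSO and 2 with acalabrutinib, a ratio of 97.9 (exact 95% interval 26.8 to 814, counting error only). The fitted line difference was -7.05 ± 0.83 (adjusted p = 3e-07), a size that depends on the handling of such low counts. The HBL1 change of 0.59 did not pass the test (adjusted p = 0.35). The HBL1 DMSO levels of EGR2 were 6.33 and 6.4 CPM at 3 h and 3.08 and 6.73 CPM at 6 h. The HBL1 drug level of 24 h lay below those of 3 h and between those of 6 h.

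DUSP2, a nuclear phosphatase that inactivates ERK, was at 21.4 and 21.8 CPM with DMSO and 2.13 and 2.1 CPM with acalabrutinib in TMD8. The HBL1 levels were 28.2 and 31.4 CPM with DMSO and 21.5 and 19.5 CPM with acalabrutinib. DUSP2 fell in both lines, by 3.35 in TMD8 and by 0.54 in HBL1, and the line difference was -2.81 ± 0.30 (adjusted p = 3.9e-08). JUNB, an AP-1 transcription factor, fell from 21.5 and 27.2 to 7.36 and 7.29 CPM in TMD8 and from 34.9 and 31.9 to 23.7 and 25.0 CPM in HBL1, a line difference of -1.28 ± 0.26 (adjusted p = 0.0013). MYC, the growth regulator, fell from 218 and 185 to 93.2 and 72.7 CPM in TMD8 and from 338 and 303 to 247 and 209 CPM in HBL1. Its line difference was -0.78 ± 0.20 (adjusted p = 0.012) and was lost without TMD8 acalabrutinib replicate 2 (adjusted p = 0.13), TMD8 DMSO replicate 1 (0.096), HBL1 acalabrutinib replicate 1 (0.096) or HBL1 DMSO replicate 2 (0.081). DUSP5, another ERK phosphatase, went against these: it rose from 126 and 137 to 231 and 208 CPM in TMD8 and was not called in HBL1 (10.5 and 12.9 to 7.08 and 10.5 CPM). Its line difference of 1.13 ± 0.30 (adjusted p = 0.017) was lost on leaving out any 1 of 4 of the 8 libraries, with adjusted p up to 0.17. Of 28 tested members of the immediate early and ERK feedback list, 4 were called negative (EGR2, DUSP2, JUNB and MYC) and 1 positive (DUSP5). Over all tested genes 2.02% were negative and 2.23% positive, the shares that stand beside each list count below. The median line difference of the list was -0.39, beside 0.03 over all tested genes.

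**Figure D2:**
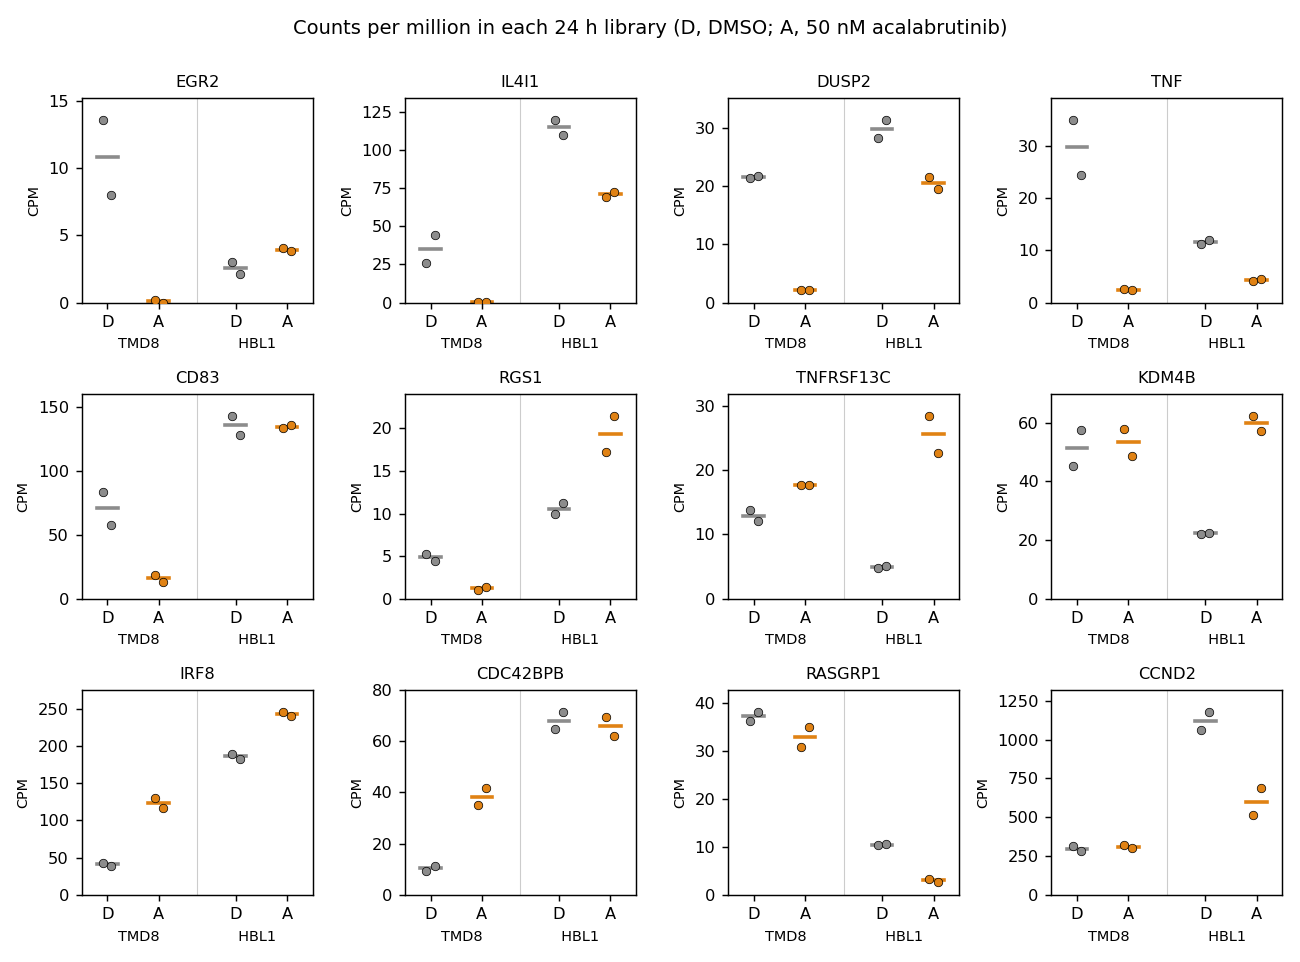
Level in CPM (vertical axis, from 0) of 12 called genes in each of the 8 libraries, with DMSO (D, grey) and 50 nM acalabrutinib (A, orange) in TMD8 on the left of each panel and HBL1 on the right; points are libraries and bars are means of 2. EGR2, IL4I1, DUSP2 and CD83 drop in TMD8, TNFRSF13C and KDM4B are higher with acalabrutinib than with DMSO in HBL1, IRF8 rises further in TMD8, CDC42BPB rises in TMD8, and RASGRP1 and CCND2 drop in HBL1.

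Among targets of NF-kB the lines differed for some genes and not for others. CD83, an activation marker of B cells and dendritic cells, was at 83.7 and 57.5 CPM with DMSO and 18.8 and 13.1 CPM with acalabrutinib in TMD8. In HBL1 the levels were 143 and 128 CPM with DMSO and 133 and 136 CPM with acalabrutinib. The TMD8 groups were apart and the HBL1 groups overlapped, and the line difference was -2.13 ± 0.27 (adjusted p = 1.3e-06). At 6 h CD83 fell in HBL1 too, from 357 and 334 to 156 and 185 CPM (-1.02, adjusted p = 5.2e-05). Its HBL1 DMSO levels at 3 h were 354 and 422 CPM, so that the DMSO level of 24 h was the lowest of the times compared here. EBI3, a subunit of the cytokines IL-27 and IL-35, fell in both lines, from 22.5 and 29.3 to 2.45 and 1.66 CPM in TMD8 and from 65.7 and 56.4 to 17.4 and 20.3 CPM in HBL1. Its fall was steeper in TMD8, with a line difference of -1.95 ± 0.34 (adjusted p = 0.00022). NFKBID, an atypical IkB protein that binds NF-kB in the nucleus, fell from 48 and 47.8 to 7.46 and 11.1 CPM in TMD8 and from 96.6 and 98.7 to 39.6 and 45.2 CPM in HBL1. The difference of -1.16 ± 0.26 (adjusted p = 0.0043) was lost without TMD8 acalabrutinib replicate 1 (adjusted p = 0.09). CD44, a hyaluronan receptor, went from 820 and 730 to 578 and 537 CPM in TMD8, a fall, and from 902 and 812 to 1110 and 992 CPM in HBL1, which was not called (adjusted p = 0.07).

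The feedback inhibitor TNFAIP3 was not called, and the call of NFKBIA depended on the setting. TNFAIP3, which encodes the ubiquitin-editing inhibitor A20, fell from 94.2 and 82.6 to 39.6 and 39.0 CPM in TMD8 and from 114 and 104 to 51.6 and 44.0 CPM in HBL1. Its changes were -1.17 and -1.19, and the line difference of 0.02 ± 0.22 was not called (adjusted p = 1). NFKBIA, which encodes IkB alpha, fell by 1.74 in TMD8 and by 1.15 in HBL1, and the difference of -0.58 ± 0.22 was not called (adjusted p = 0.15). It was called without the filter on low counts (adjusted p = 0.0062) and in a fit of the 8 libraries alone (0.032). Of 29 tested members of the NF-kB list, 6 were negative (CD83, EBI3, NFKBID, CD44, NFKB2 and TNIP1) and 1 positive (RASSF4). The shares of all tested genes were 2.02% and 2.23%. The list median was -0.68 in TMD8, -0.48 in HBL1 and -0.25 for the line difference.

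Promoter sequence was set beside these values for genes with an NF-kB consensus match. The 250 bases upstream of the start are given for EBI3, ID2 and RGS1, which carried a match and had negative line differences, and for TNFAIP3, which carried matches and fell alike in size in both lines. ID2 and RGS1 are not members of the NF-kB list. CD83, NFKBID, CD44 and TNF, also with negative differences, had no match in this window. HLA-B and TAPBP, with positive differences, carried matches. The sequences are from RefSeq (GRCh38.p14), 5′ to 3′ on the strand of the gene, and capitals mark the consensus match:
EBI3, chr19:4229273-4229522, plus strand: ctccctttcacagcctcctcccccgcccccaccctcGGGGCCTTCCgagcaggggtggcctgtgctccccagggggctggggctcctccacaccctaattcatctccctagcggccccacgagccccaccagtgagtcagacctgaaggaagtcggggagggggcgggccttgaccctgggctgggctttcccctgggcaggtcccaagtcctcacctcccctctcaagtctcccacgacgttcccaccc
ID2, chr2:8681806-8682055, plus strand: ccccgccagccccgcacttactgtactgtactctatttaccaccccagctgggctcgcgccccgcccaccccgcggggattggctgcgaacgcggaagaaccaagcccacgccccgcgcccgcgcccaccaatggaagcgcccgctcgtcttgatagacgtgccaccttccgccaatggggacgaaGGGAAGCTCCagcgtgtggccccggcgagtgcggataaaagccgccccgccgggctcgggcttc
RGS1, chr1:192575523-192575772, plus strand: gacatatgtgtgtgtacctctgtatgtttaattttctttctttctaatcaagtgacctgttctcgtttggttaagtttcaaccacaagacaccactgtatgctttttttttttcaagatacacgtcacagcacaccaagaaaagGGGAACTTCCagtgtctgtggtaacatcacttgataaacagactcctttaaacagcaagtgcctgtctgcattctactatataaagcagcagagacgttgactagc
TNFAIP3, chr6:137867009-137867258, plus strand: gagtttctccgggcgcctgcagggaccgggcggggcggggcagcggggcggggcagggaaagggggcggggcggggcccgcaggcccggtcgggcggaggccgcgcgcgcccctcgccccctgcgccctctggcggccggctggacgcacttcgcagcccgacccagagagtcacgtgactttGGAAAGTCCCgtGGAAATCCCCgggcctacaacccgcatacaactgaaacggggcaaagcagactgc

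The consensus was searched on both strands. It was present upstream of 16% of the genes with a negative line difference (34 of 213 with a promoter in the table), 10.4% of those with a positive one (25 of 241) and 11.6% of all tested genes (1200 of 10375). In the NF-kB list it was present for 9 of 24 genes (37.5%). The AP-1 motif TGANTCA was present for 5.16% of negative, 5.81% of positive and 3.82% of all tested genes, and lay in the EBI3 window as tgagtca. The E-box CACGTG was present for 11.3%, 4.98% and 9.12%, the interferon response motif for 2.35%, 2.49% and 2.58%, and the ETS-IRF composite motif, which can overlap the interferon motif, for 5.16%, 4.56% and 2.36%. A match is a run of letters in this window and not a measured binding site.

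The called cytokine genes fell in both lines and further in TMD8. TNF, an inflammatory cytokine, was at 35.0 and 24.4 CPM with DMSO and 2.56 and 2.32 CPM with acalabrutinib in TMD8, and at 11.2 and 11.9 CPM and then 4.18 and 4.42 CPM in HBL1. With acalabrutinib the TMD8 libraries lay below those of HBL1, although with DMSO they had lain above, and the line difference was -2.18 ± 0.40 (adjusted p = 0.00036). IL10, which feeds STAT3 in this lymphoma type, fell from 26.9 and 18.8 to 0.746 and 1.32 CPM in TMD8 and from 5.58 and 4.93 to 1.39 and 2.67 CPM in HBL1. Its difference of -3.10 ± 0.68 (adjusted p = 0.0032) was lost without HBL1 acalabrutinib replicate 2 (adjusted p = 0.16). IL4I1, a secreted amino acid oxidase of activated B cells, went from 25.9 and 44.2 to 0.533 and 0.662 CPM in TMD8. The HBL1 level of IL4I1 was higher with DMSO, 120 and 110 CPM, and fell to 69.5 and 72.5 CPM. The line difference of IL4I1, -5.16 ± 0.40, had the smallest p of all genes (adjusted p = 9e-12). Of 26 tested cytokines and chemokines, 3 were called (TNF, IL10 and EBI3), all negative, beside 2.02% of all tested genes. The list median was -1.22 in TMD8, -0.03 in HBL1 and -0.73 for the line difference.

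Called homing genes fell in TMD8, with S1PR2 as the exception. CXCR5, the chemokine receptor that brings B cells into follicles, fell from 108 and 96.2 to 56.2 and 46.3 CPM in TMD8 and was at 409 and 386 CPM before and 473 and 424 CPM after in HBL1. Its line difference was -1.17 ± 0.18 (adjusted p = 3.1e-05). RGS1, which damps chemokine receptor signals, moved in opposite directions: it fell from 5.27 and 4.48 to 1.07 and 1.32 CPM in TMD8 and rose from 9.96 and 11.2 to 17.2 and 21.5 CPM in HBL1. The difference was -2.89 ± 0.55 (adjusted p = 0.00067), and no group of either line overlapped the other treatment. The HBL1 DMSO levels of RGS1 were 27.3 and 30.8 CPM at 3 h and 33.5 and 41.5 CPM at 6 h, above the drug level of 24 h. CD274, which encodes the inhibitory ligand PD-L1, fell from 87.3 and 81.5 to 34.9 and 38.3 CPM in TMD8, and was low and not called in HBL1 (6.48 and 6.49 CPM, then 6.27 and 7.82 CPM). The CD274 difference of -1.33 ± 0.28 (adjusted p = 0.0018) was lost without HBL1 acalabrutinib replicate 2 (adjusted p = 0.055). At 6 h CD274 fell in both lines, with changes of -0.64 in TMD8 and -0.83 in HBL1 (adjusted p = 0.0012 and 0.044). The line difference of CD274 at 6 h, 0.19 ± 0.29, was not called (adjusted p = 0.98). Of 24 homing and adhesion genes, 4 were negative at 24 h (RGS1, CXCR5, CD44 and ITGB2) and S1PR2 was positive, with a list median of -0.30. Among all tested genes 2.02% were negative and 2.23% positive.

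A further set of negative differences came from genes that were higher with acalabrutinib than with DMSO in HBL1 at 24 h. TNFRSF13C, the receptor of the survival factor BAFF, was at 4.78 and 5.05 CPM with DMSO and 28.5 and 22.7 CPM with acalabrutinib in HBL1. The TMD8 levels were 13.8 and 12.1 CPM with DMSO and 17.7 and 17.7 CPM with acalabrutinib, a change that was not called (adjusted p = 0.084). The line difference was -1.93 ± 0.31 (adjusted p = 6.9e-05). The HBL1 DMSO level of TNFRSF13C was low at 24 h alone among the times compared here: it was 35.9 and 28.7 CPM at 3 h and 30.2 and 34.4 CPM at 6 h, above TMD8 and no lower than the 24 h drug level. TNFRSF13B, which encodes TACI, another BAFF receptor, differed the other way: it rose from 136 and 138 to 202 and 214 CPM in TMD8 and was not called in HBL1 (412 and 407, then 386 and 414 CPM). The TNFRSF13B difference of 0.64 ± 0.16 (adjusted p = 0.011) was lost without HBL1 acalabrutinib replicate 1 (adjusted p = 0.063) or TMD8 acalabrutinib replicate 2 (0.053).

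KDM4B, a histone H3 lysine demethylase, stood at 22.1 and 22.5 CPM with DMSO and 62.4 and 57.3 CPM with acalabrutinib in HBL1. It was at 45.2 and 57.5 CPM and then 57.8 and 48.8 CPM in TMD8, where the groups overlapped, and the difference was -1.37 ± 0.17 (adjusted p = 1.2e-06). The HBL1 DMSO level of KDM4B was 71.7 and 85 CPM at 3 h and 43.9 and 51.6 CPM at 6 h, so that the drug level of 24 h lay between them. IFI30, a lysosomal thiol reductase of antigen processing, rose from 124 and 138 to 226 and 224 CPM in HBL1 and fell from 309 and 303 to 273 and 245 CPM in TMD8. The IFI30 difference was -1.02 ± 0.12 (adjusted p = 5.6e-07), and its HBL1 DMSO levels of 3 h (271 and 254 CPM) and 6 h (253 and 241 CPM) lay above the drug level of 24 h. BTG2, an antiproliferative gene, rose in both lines and further in HBL1, from 195 and 209 to 641 and 587 CPM against 271 and 253 to 557 and 511 CPM in TMD8, a difference of -0.58 ± 0.10 (adjusted p = 0.00036). In HBL1 with DMSO BTG2 was at 493 and 534 CPM at 6 h, below the drug level of 24 h. Both HBL1 DMSO libraries of 3 h lay above that level, the higher at 843 CPM. In TMD8 with DMSO BTG2 was at 717 and 698 CPM at 3 h and 432 and 460 CPM at 6 h. The TMD8 drug level of 24 h lay between these as well. RASGRP2, an exchange factor that activates the GTPase RAP1, rose from 1.99 and 1.68 to 10.3 and 5.86 CPM in HBL1, above its earlier DMSO libraries, which were at most 5.0 CPM. In TMD8 it rose from 27.1 and 28.8 to 36.1 and 41.3 CPM, and the difference of -1.64 ± 0.37 (adjusted p = 0.0048) was lost without HBL1 acalabrutinib replicate 1 (adjusted p = 0.11).

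Genes that fell in TMD8 and rose in HBL1 also included signalling proteins. SRC, a tyrosine kinase, fell from 17.6 and 15.4 to 6.29 and 4.75 CPM in TMD8 and rose from 85.6 and 73.1 to 110 and 96.2 CPM in HBL1 (difference -1.95 ± 0.25, adjusted p = 1.1e-06). PTPRF, a receptor tyrosine phosphatase, fell from 24.0 and 28.1 to 11.0 and 11.0 CPM in TMD8 and rose from 1.79 and 1.2 to 6.03 and 4.42 CPM in HBL1. Its difference was -3.01 ± 0.44 (adjusted p = 1.3e-05). In HBL1 with DMSO, PTPRF was at 6.02 and 5.46 CPM at 3 h and 4.14 and 2.31 CPM at 6 h. SRC was there at 148 and 135 CPM at 3 h, above its drug level of 24 h, and at 89.9 and 98.9 CPM at 6 h. UAP1, an enzyme that makes the sugar donor UDP-N-acetylglucosamine, fell from 51.9 and 51.1 to 22.3 and 24.6 CPM in TMD8 and rose from 93.2 and 89.8 to 125 and 123 CPM in HBL1. With -1.58 ± 0.14 (adjusted p = 8.9e-10), UAP1 had the next smallest p after IL4I1, and its relative UAP1L1 moved the same way (-1.61 ± 0.24, adjusted p = 2.2e-05). Smaller opposite movements were seen for BCL6, the repressor that holds the germinal centre state, which fell from 35.0 and 30.8 to 24.3 and 24.2 CPM in TMD8 and rose from 145 and 158 to 222 and 176 CPM in HBL1 (difference -0.83 ± 0.18, adjusted p = 0.0039). The HBL1 drug levels of UAP1, UAP1L1 and BCL6 lay above their HBL1 DMSO levels of 3 h and 6 h.

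Among the positive differences with small p were genes that rose in TMD8. IRF8, a transcription factor of B cells and myeloid cells, was at 42.9 and 38.6 CPM with DMSO and 130 and 116 CPM with acalabrutinib in TMD8. The HBL1 levels of IRF8 were 189 and 183 CPM and then 246 and 240 CPM. IRF8 rose in both lines, by 1.60 in TMD8 and 0.38 in HBL1, and the line difference was 1.21 ± 0.14 (adjusted p = 1.3e-07). CD37, a tetraspanin of B cells, rose from 541 and 535 to 1200 and 1080 CPM in TMD8 and was at 500 and 563 CPM and then 597 and 606 CPM in HBL1, which was not called (adjusted p = 0.12). The CD37 difference was 0.91 ± 0.11 (adjusted p = 1.1e-06). FCRLA, an Fc receptor-like protein of B cells, rose in both lines and further in TMD8 (0.58 ± 0.12, adjusted p = 0.0014).

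TLE1, a Groucho-family corepressor, rose from 44.8 and 39.1 to 86.2 and 82.7 CPM in TMD8, and the HBL1 groups were 58.3 and 55.3 CPM and 51.3 and 53.4 CPM. Its difference was 1.13 ± 0.13 (adjusted p = 3e-07), and that of its relative TLE3, which rose in TMD8 and fell in HBL1, was 0.82 ± 0.18 (adjusted p = 0.0026). CDC42BPB, a kinase of the CDC42 pathway, rose from 9.36 and 11.3 to 35.0 and 41.7 CPM in TMD8 and was at 64.6 and 71.5 CPM and then 69.6 and 62.2 CPM in HBL1. The line difference of CDC42BPB was 1.93 ± 0.21 (adjusted p = 1.1e-07). ID2, an inhibitor of E proteins, and its partner TCF3, which encodes the E proteins E12 and E47, both had negative differences. ID2 fell from 92.1 and 73.4 to 32.5 and 30.4 CPM in TMD8 and was not called in HBL1 (71.2 and 74.4, then 67.5 and 61.3 CPM), a difference of -1.22 ± 0.19 (adjusted p = 2.8e-05). At 6 h ID2 fell in HBL1 as well, from 133 and 111 to 76.8 and 68.4 CPM (-0.75, adjusted p = 6.4e-05). TCF3 had a difference of -0.50 ± 0.12 (adjusted p = 0.0059), lost without TMD8 DMSO replicate 2 (adjusted p = 0.08). Of 23 B cell identity genes, 3 were positive (CD37, FCRLA and POU2F2) and 2 negative (ID2 and TCF3), with a list median of 0.10. Positive calls were 2.23% and negative calls 2.02% of all tested genes.

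Among genes of the proximal receptor pathway, BTK, which encodes the target of the drug, was at 461 and 435 CPM and then 516 and 478 CPM in TMD8 and at 226 and 226 CPM and then 252 and 248 CPM in HBL1, a difference of 0.01 ± 0.09 (adjusted p = 1). The Toll-like receptor adaptor MYD88 (0.25 ± 0.14, adjusted p = 0.39) was not called either. CD79B, a signalling chain of the B cell receptor, rose in both lines, from 244 and 244 to 620 and 561 CPM in TMD8 and from 598 and 581 to 1150 and 1050 CPM in HBL1. The CD79B difference of 0.38 ± 0.10 (adjusted p = 0.022) was lost on leaving out any 1 of 5 of the 8 libraries, with adjusted p from 0.067 to 0.15 in those fits: TMD8 acalabrutinib replicate 1, both TMD8 DMSO libraries, HBL1 acalabrutinib replicate 2 and HBL1 DMSO replicate 1. It was also lost without the filter on low counts (0.14), in a fit of the 16 libraries of 24 h (0.11) and in a fit of the 8 libraries alone (0.15). Of 30 tested receptor signalling genes, 3 were called, all positive (CD79B, the inhibitory receptor CD72 and the adaptor DAPP1). The positive share was 2.23% over all tested genes, and the list median was 0.17.

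Movement in HBL1 alone also gave positive differences, where HBL1 fell and TMD8 held. RASGRP1, a diacylglycerol-activated RAS exchange factor, fell from 10.4 and 10.5 to 3.25 and 2.67 CPM in HBL1 and was at 36.2 and 38.1 CPM and then 30.7 and 34.9 CPM in TMD8. The difference was 1.63 ± 0.24 (adjusted p = 1.3e-05), opposite in sign to that of RASGRP2. LILRB4, an inhibitory receptor, fell from 11.3 and 9.98 to 2.67 and 4.22 CPM in HBL1, and its TMD8 level was far higher and not called, 315 and 314 CPM with DMSO and 351 and 363 CPM with acalabrutinib (difference 1.79 ± 0.24, adjusted p = 2.4e-06). CCND2, which encodes the G1 cyclin D2, fell from 1060 and 1180 to 514 and 687 CPM in HBL1. In TMD8 the CCND2 levels overlapped between treatments, 312 and 281 CPM with DMSO and 322 and 298 CPM with acalabrutinib, and the difference was 0.96 ± 0.18 (adjusted p = 0.00058). It was the member called among 26 tested G1 cyclins, CDKs and inhibitors (3.85%, beside 4.25% of all tested genes).

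CLEC17A, a C-type lectin of germinal centre B cells, went opposite ways, up from 87.3 and 86.3 to 112 and 102 CPM in TMD8 and down from 305 and 298 to 178 and 190 CPM in HBL1. Its difference of 1.01 ± 0.10 had the smallest p among positive calls (adjusted p = 2.8e-08). SIK1, a salt-inducible kinase, rose from 61.8 and 72.6 to 114 and 115 CPM in TMD8 and fell from 8.07 and 8.9 to 3.95 and 4.63 CPM in HBL1 (difference 1.74 ± 0.25, adjusted p = 1.1e-05). SP140, a chromatin reader of lymphoid cells, did the same (0.98 ± 0.13, adjusted p = 1.5e-06).

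Of 13 tested plasma cell differentiation genes, 2 were positive (IGJ and CREB3L2) and 2 negative (IRF4 and SLAMF7), with a list median of 0.22. Such calls made up 2.23% and 2.02% of all tested genes. IGJ (now JCHAIN), the joining chain of IgM and IgA, rose from 3.87 and 2.29 to 29.0 and 35.2 CPM in TMD8 and from 24.2 and 18.9 to 62.2 and 65 CPM in HBL1. The rise was larger in TMD8, where the DMSO level was lower (difference 1.84 ± 0.32, adjusted p = 0.00018). IRF4, which drives both the activated B cell and the plasma cell programmes, fell in both lines, from 1850 and 1560 to 737 and 620 CPM in TMD8 and from 786 and 685 to 480 and 429 CPM in HBL1. Its difference of -0.64 ± 0.17 (adjusted p = 0.022) was lost without TMD8 acalabrutinib replicate 2 (adjusted p = 0.16), TMD8 DMSO replicate 1 (0.16), HBL1 DMSO replicate 2 (0.15) or HBL1 acalabrutinib replicate 1 (0.12), and in a fit of the 16 libraries of 24 h (0.079). SLAMF7, a surface receptor of plasma cells and lymphocytes, fell in TMD8 and was not called in HBL1 (-0.91 ± 0.16, adjusted p = 0.00028). CREB3L2, a transcription factor of the secretory pathway, rose in TMD8 (0.54 ± 0.14, adjusted p = 0.012), a call lost without HBL1 acalabrutinib replicate 2 (0.098) or TMD8 DMSO replicate 2 (0.073). PRDM1, which encodes the plasma cell repressor BLIMP-1, rose in both lines and was not called for the difference (-0.35 ± 0.19, adjusted p = 0.37). BATF, an AP-1 family partner of IRF4 and not a member of this list, fell further in TMD8 (155 and 162 to 42.8 and 41.8 CPM) than in HBL1 (123 and 107 to 46.9 and 58.4 CPM), a difference of -0.78 ± 0.15 (adjusted p = 0.0006).

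Among survival genes, MCL1, an antiapoptotic BCL2 family member, rose from 444 and 429 to 682 and 635 CPM in TMD8. In HBL1 it was at 309 and 321 CPM and then 301 and 287 CPM, which was not called (adjusted p = 0.39), and the difference was 0.69 ± 0.10 (adjusted p = 2e-05). The initiator caspase CASP10 rose in TMD8 and was not called in HBL1, from 32.7 and 29.8 to 78 and 76.1 CPM against 6.38 and 7.09 to 6.73 and 6.79 CPM (difference 1.29 ± 0.25, adjusted p = 0.00082). BCL2L11, which encodes the death-promoting BIM, was higher with acalabrutinib than with DMSO in both lines at 24 h. In TMD8 it went from 395 and 384 to 761 and 778 CPM, and in HBL1 from 59.4 and 54.2 to 77.6 and 76.3 CPM. The HBL1 DMSO levels of BCL2L11 were 108 and 96.5 CPM at 3 h and 96.1 and 89.9 CPM at 6 h. They lay above the HBL1 drug level of 24 h. The BCL2L11 difference of 0.55 ± 0.14 (adjusted p = 0.015) was lost without HBL1 DMSO replicate 1 (adjusted p = 0.11), TMD8 DMSO replicate 2 (0.066) or HBL1 acalabrutinib replicate 2 (0.059). Of 27 tested members of the BCL2 family and cell death list, 3 were positive (MCL1, CASP10 and BCL2L11) and 2 negative (BID and PMAIP1). The list median was 0.10, and 2.23% and 2.02% of all tested genes had such calls.

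**Figure D3:**
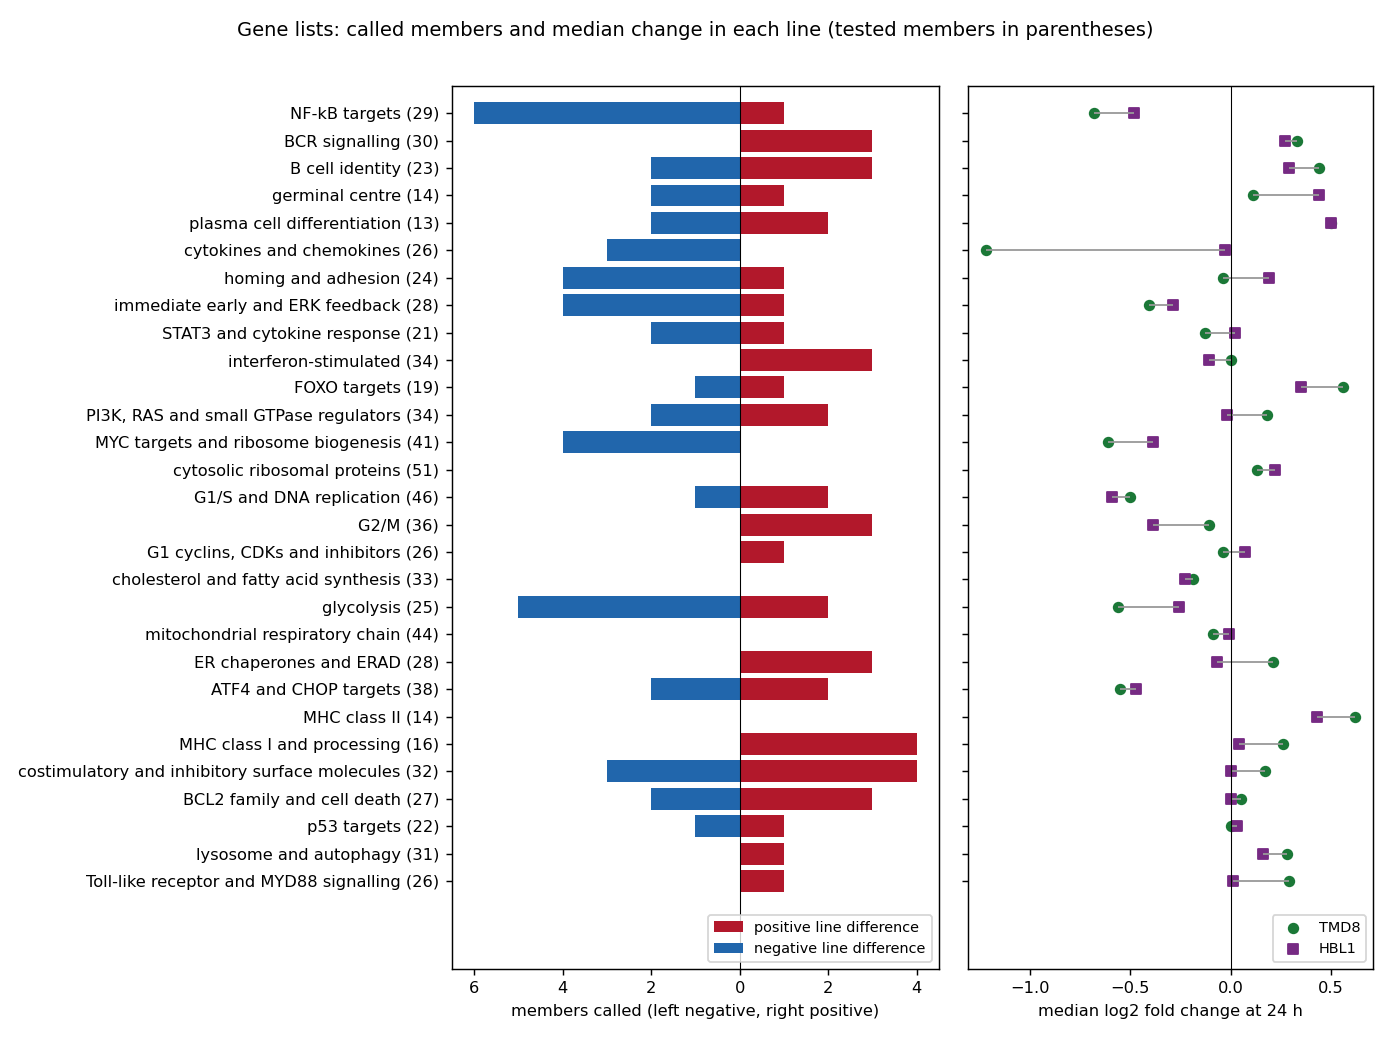
Left, number of members of each gene list called for the 24 h line difference, negative (blue, to the left) and positive (red, to the right), with the number tested in parentheses. Right, median log2 fold change of the tested members in TMD8 (green circles) and HBL1 (purple squares). Cytokines and chemokines have the widest gap, -1.22 in TMD8 and -0.03 in HBL1, while cholesterol synthesis, MHC class II, respiratory chain and ribosomal protein genes have no called member. Over all tested genes 4.25% were called.

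Of 41 MYC targets and ribosome biogenesis genes, 40 fell in TMD8 and 33 in HBL1, beside 15.5% and 11.4% of all tested genes. The difference was called for 4, all negative, beside 2.02% of all tested genes: SRM, the spermidine synthase, NPM1, a nucleolar chaperone, BOP1 and MYBBP1A. SRM fell from 288 and 291 to 167 and 134 CPM in TMD8 and was at 376 and 355 CPM and then 317 and 314 CPM in HBL1, which was not called (difference -0.73 ± 0.14, adjusted p = 0.0006). The calls of NPM1, BOP1 and MYBBP1A were lost on leaving out any 1 of 2, 5 and 6 of the 8 libraries, with adjusted p up to 0.069, 0.22 and 0.36. The list median was -0.61 in TMD8, -0.39 in HBL1 and -0.23 for the difference. Of 25 glycolysis genes, 5 were negative (PDK1, SLC16A1, HK2, ENO1 and PFKM) and 2 positive (PFKP and PFKFB3), with a median of -0.25. Over all tested genes the shares were 2.02% and 2.23%. PFKP, a phosphofructokinase, rose from 270 and 299 to 389 and 378 CPM in TMD8 and was not called in HBL1 (0.62 ± 0.10, adjusted p = 0.00014). PFKM, its muscle-type relative, fell from 131 and 125 to 92.7 and 86.2 CPM in TMD8 and was not called in HBL1. Its difference of -0.41 ± 0.11 (adjusted p = 0.028) was lost on leaving out any 1 of 6 of the 8 libraries, with adjusted p up to 0.16.

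Of 36 G2/M genes, 24 fell in HBL1 and 0 rose, while in TMD8 9 fell and 1 rose. Over all tested genes 11.4% fell and 7.62% rose in HBL1, and 15.5% did each in TMD8. The line difference was called for PRC1, ECT2 and CDC25B, all positive, beside 2.23% of all tested genes, and the median was 0.26. ECT2, an exchange factor of cytokinesis, was at 131 and 123 CPM and then 130 and 123 CPM in TMD8. In HBL1 ECT2 fell from 125 and 119 to 81.9 and 88 CPM (0.51 ± 0.14, adjusted p = 0.022). Its HBL1 DMSO levels were 50.5 and 50.7 CPM at 3 h and 65.1 and 62.5 CPM at 6 h. PRC1 fell from 164 and 166 to 114 and 123 CPM in HBL1, where its earlier DMSO libraries were at most 74.3 CPM. For ECT2 and PRC1 the HBL1 drug level of 24 h thus lay above the DMSO levels of 3 h and 6 h. These 3 calls were lost on leaving out any 1 of 4 (ECT2), 5 (CDC25B) or 6 (PRC1) of the 8 libraries, with adjusted p up to 0.12, 0.20 and 0.12. Of 46 G1/S and replication genes, 36 fell in TMD8 and 42 in HBL1, beside 15.5% and 11.4% of all tested genes. For the line difference E2F2 and GINS3 were positive and CDC25A negative, beside 2.23% and 2.02% of all tested genes.

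Antigen presentation and protein folding lists held positive calls, beside 2.23% of all tested genes. Of 16 MHC class I and processing genes 4 were positive: PSMB8, a subunit of the immunoproteasome, TAPBP, HLA-B and the class I transactivator NLRC5. PSMB8 rose from 123 and 129 to 182 and 180 CPM in TMD8 and was not called in HBL1 (0.53 ± 0.12, adjusted p = 0.0045), a call lost without HBL1 DMSO replicate 1 (adjusted p = 0.059). The TAPBP, HLA-B and NLRC5 calls were lost on leaving out any 1 of 5, 5 and 6 of the 8 libraries, and reads of HLA-B may be shared with other class I genes. Of 28 ER chaperone and ERAD genes 3 were positive (PDIA4, SPCS3 and DNAJB11), with a median of 0.21 in TMD8 and -0.07 in HBL1. DNAJB11 was itself called in neither line (adjusted p = 0.12 in TMD8 and 0.061 in HBL1). PDIA4, a protein disulfide isomerase, rose from 176 and 156 to 264 and 223 CPM in TMD8 and was not called in HBL1. The PDIA4 difference of 0.77 ± 0.18 (adjusted p = 0.0051) was lost without TMD8 acalabrutinib replicate 1 (adjusted p = 0.053) or TMD8 DMSO replicate 2 (0.055). The interferon-stimulated list had 3 positive members of 34 (OAS1, PARP9 and IFIT2), beside 2.23% of all tested genes. OAS1, an RNA-sensing synthetase, rose in both lines and further in TMD8 (0.76 ± 0.13, adjusted p = 0.00021). The call of IFIT2 was lost on leaving out any 1 of 6 of the 8 libraries (adjusted p up to 0.22), and that of PARP9 without HBL1 acalabrutinib replicate 2 (0.058) or TMD8 DMSO replicate 2 (0.092). Lists with no call were cytosolic ribosomal proteins (51 tested), the respiratory chain (44), cholesterol and fatty acid synthesis (33) and MHC class II (14). Called genes were 4.25% of all tested genes.

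Among the rest, the largest positive differences at a mean log2 CPM of at least 1 were those of TMEM154 (3.27), ABLIM1 (3.18), TAS1R3 (2.87) and CAMK2N1 (2.58). CAMK2N1, an inhibitor of calcium/calmodulin-dependent kinase II, was at 4.73 and 3.81 CPM and then 29.6 and 29.9 CPM in TMD8, and at 1.89 and 1.32 CPM and then 1.97 and 1.85 CPM in HBL1. Its call was lost without HBL1 DMSO replicate 1 (adjusted p = 0.063), as was that of ABLIM1 (0.23). GNB3, a G protein beta subunit, rose from 5.7 and 4.2 to 56.4 and 43.1 CPM in TMD8 and from 8.37 and 10.5 to 17.6 and 18.1 CPM in HBL1, and kept its call without each of the 8 libraries (2.40 ± 0.35, adjusted p = 1.4e-05). Of the 590 called genes, 85 were members of a list (43 positive and 42 negative), 568 had a mean log2 CPM of at least 1, and 10 had no gene ID. In 19 of them a 24 h group had at most 3 reads, so that the size of the difference is uncertain.

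The same comparison was made in the separate libraries of 6 h and 3 h. At 6 h 23 genes (0.166%) were called, 6 positive (0.0432%) and 17 negative (0.122%), and 17 of the 23 were among the 590 of 24 h, all with the same sign. At an unadjusted p under 0.05, 5.89% of all tested genes differed at 6 h. The 17 shared genes included EGR2, IL4I1, DUSP2, CD83, NFKBID and CXCR5 on the negative side and RASGRP1, SIK1, CLEC17A, TLE3 and MCL1 on the positive side. EGR2 went from 33.6 and 39.3 to 2.33 and 2.95 CPM in TMD8 at 6 h and from 3.08 and 6.73 to 1.7 and 3.56 CPM in HBL1 (difference -2.92 ± 0.54, adjusted p = 0.0033). IL4I1 went from 99.6 and 95.8 to 22.7 and 25.9 CPM in TMD8 and from 284 and 328 to 177 and 219 CPM in HBL1 at 6 h. Its 6 h difference of -1.38 was smaller than the -5.16 of 24 h, a contrast that was not tested. RASGRP1 went from 64.7 and 68.2 to 49.8 and 46.9 CPM in TMD8 and from 16.9 and 17.1 to 5.71 and 5.5 CPM in HBL1 at 6 h (1.14 ± 0.20, adjusted p = 0.0025).

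Of the 590 genes, 436 (73.9%) had the same sign of line difference at 6 h, against 57.9% of all tested genes. A same sign with an unadjusted p under 0.05 at 6 h was found for 130 (22%), against 4.41% of all tested genes, and the opposite sign with such a p for 7. Several strong 24 h differences had little counterpart at 6 h: the 6 h value was 0.12 for UAP1, 0 for TNFRSF13C, -0.02 for LILRB4 and -0.11 for CD37, each with an adjusted p of at least 0.94. At 3 h edgeR called 0 genes, with 404 (2.91%) at an unadjusted p under 0.05, and DESeq2 also called 0. Of the 590 genes, 55.8% had the 24 h sign at 3 h, against 50.0% of all tested genes.

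**Figure D4:**
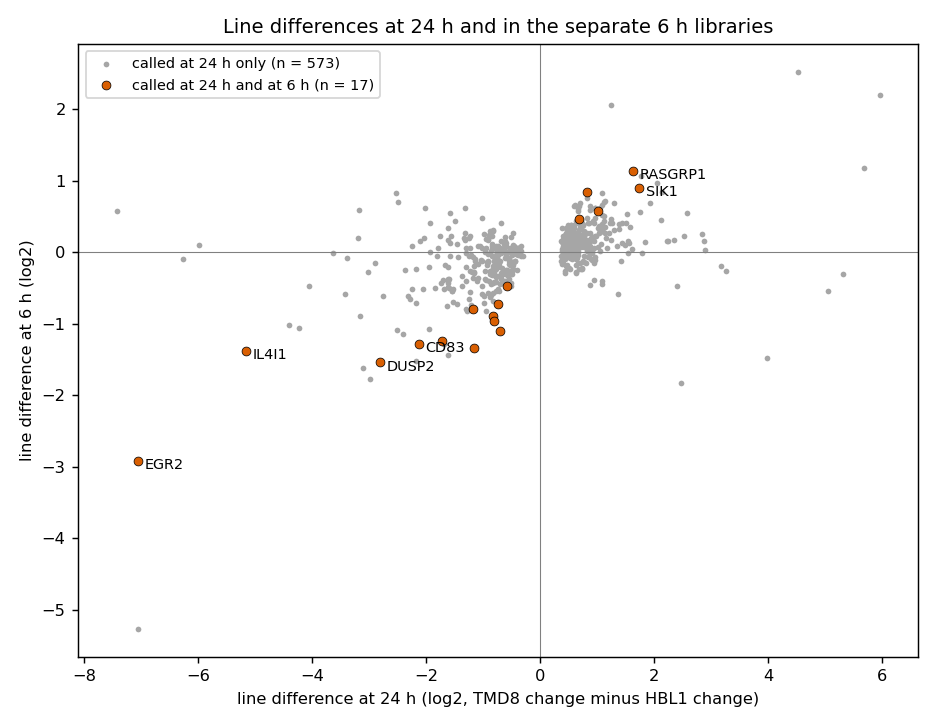
Line difference (log2, TMD8 change minus HBL1 change) at 24 h (horizontal axis) and at 6 h (vertical axis) for the 590 genes called at 24 h; orange points are the 17 called at both times and grey points the others. All 17 lie in the quadrants of equal sign, with EGR2 lowest at -2.92 at 6 h.

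Levels without drug were compared in the DMSO libraries of 3 h and 6 h, which the 24 h comparison did not use. In these, 285 of the 590 genes (48.3%) were called and at least 2-fold apart between the lines, against 35.0% of all tested genes. Higher DMSO levels were called in TMD8 for 259 and in HBL1 for 268 of the 590 genes, beside 38.0% and 36.8% of all tested genes, 74.8% in either direction. The positive genes had a median DMSO difference (TMD8 minus HBL1) of 0.22 and the negative genes -0.25. In 9 of the 590 genes all 4 libraries of a line were under 1 CPM at 24 h. EGR2 was 2.99 (log2) higher in TMD8 and RASGRP1 1.82 higher, whereas IL4I1 was -1.84 and CLEC17A -2.17, so that called genes were found on both sides of the baseline.

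Each call was also examined without each of the 8 libraries in turn. The call was kept in all 8 of these fits for 203 of the 590 genes (34.4%), 106 positive and 97 negative. Among the genes described above, EGR2, IL4I1, DUSP2, TNF, CD83, EBI3, RGS1, SRC, PTPRF, UAP1, TNFRSF13C, KDM4B, IFI30, CXCR5, ID2, IRF8, CD37, TLE1, CDC42BPB, CLEC17A, RASGRP1, SIK1, LILRB4, CCND2, IGJ and MCL1 were in that set. Of the 123 called genes chosen for naming, 54 lost the call on leaving out at least 1 library, and PDK1 and PMAIP1 lost it whichever of the 8 was left out. Among list members named without a p, the number of the 8 fits in which the call was lost was 7 for DNAJB11, 6 for CD72 and ITGB2, 4 for ENO1, PFKFB3, POU2F2, SLC16A1 and CDC25A, 3 for BID, E2F2 and SPCS3, and 1 for RASSF4. S1PR2 was lost without HBL1 DMSO replicate 1 (adjusted p = 0.36) or HBL1 acalabrutinib replicate 1 (0.081), and TAS1R3 in 5 fits. With RLE size factors in place of TMM the calls of CD72 (adjusted p = 0.062), DNAJB11 (0.064), NLRC5 (0.066) and HLA-B (0.063) were also lost. Without the filter on low counts those of HLA-B (0.2), TAPBP (0.17), SPCS3 (0.14), CDC25B (0.13) and CD72 (0.11) were lost. A stricter filter lost CD72 (0.07), DNAJB11 (0.062) and NLRC5 (0.08), and DESeq2 lost NLRC5 (0.053). Among genes named above, a fit of the 16 libraries of 24 h also lost the calls of MYBBP1A, ENO1, TAPBP, HLA-B, SPCS3, CD72, CDC25B and NLRC5, and a fit of the 8 libraries lost those of these 8 genes and of NPM1, PFKM, DNAJB11, S1PR2 and IFIT2. HK2, NFKB2 and TNIP1 were named after their values were seen, to complete the counts of their lists.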

How the data were processed

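The values are whole read counts per gene, unscaled, as deposited by the authors. HTSeq and the build hg19 are named per the submitters' processing notes. The aligner, all versions and the strand setting are not given in the sources used here, so reads of near-identical or overlapping genes may be misassigned. The 3449 of 25066 genes without a gene ID held 0.815% of reads and were kept, and 27 symbols turned into dates were restored. Groups were taken from the sample labels, which do not say whether duplicates came from separate cultures. The p-values therefore reflect the spread between duplicate libraries alone, and that spread may be technical.

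Counts were scaled by TMM and tested with edgeR 4.0.16 (R 4.3.3), after filterByExpr by group left 13881 genes. The model had a mean for each of 24 groups over all 48 libraries, which shared an estimate of the spread on 24 residual degrees of freedom (coefficient of variation 7.34% between libraries of a group). Adjusted p-values are Benjamini-Hochberg values over all tested genes. CPM values use TMM library sizes. The scripts were tested on simulated data. Between replicates the chi-square per degree of freedom was 3.25 to 6.23 and the correlation of log2 CPM (prior count 2) 0.9905 to 0.9924, so no library was taken for a copy.

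The members and the gene lists were chosen with earlier results of these data known. Named genes were those called at a mean log2 CPM not below 1 that had, in each direction, the 12 smallest p, the 8 largest differences, the 8 clearest opposite movements or the 4 smallest p of a list, plus 10 fixed genes, of which 6 were not called. Promoters (RefSeq, GRCh38.p14) were matched by gene ID for 10375 tested genes, and the 250 bases upstream of the start were searched. Alternatives were RLE size factors, no filter and a stricter filter on low counts, DESeq2 1.42.0, fits of 8 or of 16 libraries, replicate blocks and leaving out each library.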

Additional observations from a re-analysis of the deposited data

Results flagged for a closer look

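The effect of acalabrutinib in TMD8 and in HBL1 was set side by side by a test of the difference itself, and 590 genes passed at 24 h and 23 at 6 h. The genes that passed at both times, in separate libraries, were 17. On the negative side the 6 h differences were -2.92 for EGR2, -1.54 for DUSP2, -1.38 for IL4I1, -1.34 for NFKBID, -1.28 for CD83, -1.25 for RUNX2, -1.10 for SLC12A7, -0.96 for KLHL6, -0.90 for CEP250, -0.79 for CXCR5, -0.73 for ADAM19 and -0.48 for BTG2. On the positive side they were 1.14 for RASGRP1, 0.90 for SIK1, 0.84 for TLE3, 0.57 for CLEC17A and 0.46 for MCL1. RUNX2, a transcription factor, fell by 1.56 in TMD8 at 24 h and was not called in HBL1. SLC12A7, a potassium-chloride cotransporter, changed sign in TMD8 between the times, with -0.44 at 6 h and 0.31 at 24 h, and rose at both times in HBL1, by 0.67 and 1.02. KLHL6, CEP250, SLC12A7, ADAM19 and RUNX2 were outside the rule for named genes and were chosen after their values were seen.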

How the results depend on the processing

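The count of 590 line differences at 24 h was 600 with DESeq2 (529 of them the same genes), 567 with RLE size factors (540), 746 without a filter (507), 646 with a stricter filter (542), 508 in a fit of the 16 libraries of 24 h (452) and 477 in a fit of the 8 libraries (425). Without each library in turn it was 358 to 477, and the TMD8 effect gave 2919 to 3719 calls, the HBL1 effect 1254 to 2126, the 6 h difference 13 to 21, the 3 h difference 0 and the DMSO level difference 9978 to 10162. With a library left out, its group held a lone sample assumed to vary like the others. HBL1 calls were 1512 without HBL1 acalabrutinib replicate 1 and 1254 without HBL1 DMSO replicate 1, and the 6 h calls were 13 without HBL1 acalabrutinib replicate 2 and 15 without HBL1 DMSO replicate 1. Without the filter on low counts the 6 h difference gave 62 calls and the 3 h difference 3. The cause of these shifts was not tested. Labels do not say that replicate numbers pair samples, and the deviations of same-numbered libraries correlated at 0.044 to 0.198 among the 24 h groups. With a replicate block the 24 h count was 797 and the 6 h count 44, and with a replicate block within line and time they were 1714 and 251, with 4201 for HBL1 and 10 at 3 h. All 590 genes were also called under both blocks. Of 2062 values of single named genes under alternatives, 1797 kept their side of the threshold, 261 lost the call, 4 gained it and 0 reversed. The gains were of NFKBIA, without a filter (adjusted p = 0.0062), in the 8 libraries (0.032), with a replicate block (0.048) and with the block within line and time (0.00056). Depth limits the 19 called genes with at most 3 reads in a 24 h group.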
